A study of Mus musculus with 12 samples.

Results

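The p53 targets described here are 10 genes that the tumour suppressor p53 is known to switch on: Ccng1, Aen, Phlda3, Cdkn1a, Mdm2, Eda2r, Bax, Trp53inp1, Zmat3 and Sesn2. They were chosen with earlier results of these data known, and picked by symbol from the 54838 genes of the deposited table. Each symbol matched 1 row, and all 10 were among the 14643 genes with enough counts to be tested. Their RNA was followed in 12 mouse liver libraries, 4 each with the labels DMH, DM and CTL. DM and DMH are not spelled out in the labels, so both names stand as written. The study's stated subject is an anti-diabetic action of the alga Chlamydomonas reinhardtii in a red form rich in protoporphyrin IX, but which mice received it is not stated. The sources used here do not give strain, genotype, sex, age, dose or time. Whether libraries within a group stem from different animals is not stated, so a p-value here reflects only how these samples scatter, and that scatter may be technical.

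p53 is a transcription factor that is kept scarce in unstressed cells because the ubiquitin ligase Mdm2, itself a p53 target, marks it for destruction. DNA damage and other stresses free p53 from this control, and it then binds near genes that halt the cell cycle, repair DNA, curb growth signalling or start cell death. In liver, p53 also takes part in the response of hepatocytes to toxic, nutritional and oncogenic stress. In this set Cdkn1a and Ccng1 act on the cell cycle, Mdm2 limits p53, Bax, Aen, Eda2r and Trp53inp1 belong to death and autophagy pathways, and Phlda3, Sesn2 and Zmat3 restrain growth signalling or bind RNA.

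p53 binds DNA through pairs of a 10-base half-site. RefSeq promoter windows of GRCm38.p6, which run from 250 bases before to 50 bases after an annotated start, were found for 8 of the 10 genes, as 10 windows of 300 bases. The p53 half-site consensus, which reads the same on both strands, occurred in 6 of these 10 windows (60%) and in 2745 of all 32851 windows (8.36%). The 2 windows of Aen overlap and hold the same site, so 5 of the 8 genes had a match. CATG, the core letters of many strong sites and also the same on both strands, occurred in 5 of the 10 windows (50%) and in 61.1% of all windows. A match is a description of letters and not evidence of binding, and p53 sites can lie outside these windows. The windows with a match are shown because the set was named for p53, with the half-site in capitals and for Aen the first of its 2 overlapping windows.

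Ccng1, chr11:40755237-40755536, minus strand: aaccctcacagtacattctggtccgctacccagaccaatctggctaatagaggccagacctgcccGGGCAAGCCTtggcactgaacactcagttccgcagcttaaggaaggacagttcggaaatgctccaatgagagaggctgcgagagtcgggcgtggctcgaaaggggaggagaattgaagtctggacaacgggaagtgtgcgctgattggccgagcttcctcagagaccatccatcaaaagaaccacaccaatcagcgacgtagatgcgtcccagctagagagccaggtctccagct
Aen, chr7:78895677-78895976, plus strand: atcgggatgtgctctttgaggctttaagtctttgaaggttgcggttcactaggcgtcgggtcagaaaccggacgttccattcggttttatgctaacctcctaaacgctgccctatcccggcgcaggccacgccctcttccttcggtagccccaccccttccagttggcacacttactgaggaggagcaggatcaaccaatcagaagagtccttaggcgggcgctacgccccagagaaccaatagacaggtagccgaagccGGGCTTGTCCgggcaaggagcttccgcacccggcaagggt
Cdkn1a, chr17:29090729-29091028, plus strand: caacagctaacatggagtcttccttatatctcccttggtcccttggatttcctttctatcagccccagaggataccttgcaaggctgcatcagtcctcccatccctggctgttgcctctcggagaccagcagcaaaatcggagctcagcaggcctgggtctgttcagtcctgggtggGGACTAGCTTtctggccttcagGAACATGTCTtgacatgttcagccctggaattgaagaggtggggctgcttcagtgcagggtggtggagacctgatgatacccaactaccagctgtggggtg
Mdm2, chr10:117710709-117711008, minus strand: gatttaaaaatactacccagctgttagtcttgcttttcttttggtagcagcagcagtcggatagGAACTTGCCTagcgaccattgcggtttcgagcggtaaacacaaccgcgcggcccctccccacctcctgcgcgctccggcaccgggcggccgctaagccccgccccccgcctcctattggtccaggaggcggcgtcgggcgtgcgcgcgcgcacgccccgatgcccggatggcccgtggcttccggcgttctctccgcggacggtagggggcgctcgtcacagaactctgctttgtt
Bax, chr7:45466849-45467148, minus strand: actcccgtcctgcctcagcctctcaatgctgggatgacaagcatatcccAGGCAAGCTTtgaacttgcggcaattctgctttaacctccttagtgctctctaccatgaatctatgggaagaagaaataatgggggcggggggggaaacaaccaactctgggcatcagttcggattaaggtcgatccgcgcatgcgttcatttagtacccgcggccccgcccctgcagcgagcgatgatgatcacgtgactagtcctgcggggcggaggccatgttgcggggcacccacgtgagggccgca

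Cdkn1a was the only one of the 8 genes with a pair of half-sites in a window, with 12 bases between them, and at least 2 half-sites occurred in 0.359% of all windows. Counted from 0 at the start, its half-sites began at -73 and -51. Those of Ccng1, Mdm2 and Bax began at -185, -186 and -201. The site of Aen began at 10 from the start of its first window and at -121 from that of its second. Phlda3, Eda2r and Sesn2 had no half-site in their windows, and the second window of Cdkn1a had none.

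**Figure D1:**
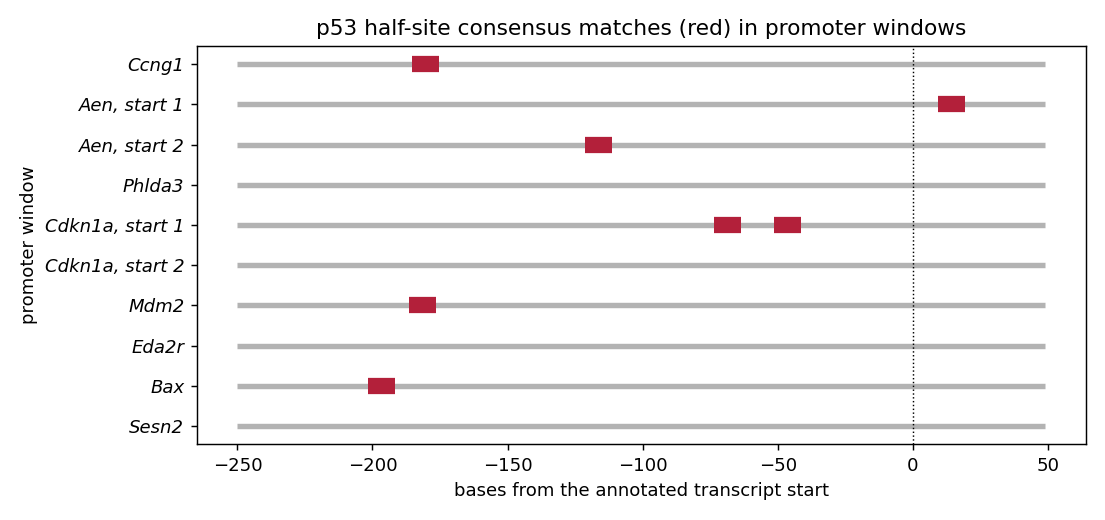
Positions of the p53 half-site consensus (red) along 10 RefSeq promoter windows of 8 p53 target genes, in bases from the annotated transcript start. Windows of Ccng1, Aen, Cdkn1a, Mdm2 and Bax hold matches, and those of Phlda3, Eda2r and Sesn2 hold none.

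Library totals ran from 13430122 to 17038017 counts. Mitochondrially encoded genes made up 30.1% ± 6.23 of counts in DMH, 24.2% ± 6.55 in DM and 15.4% ± 7.36 in CTL (SD, n = 4 each), with DMH1 highest at 37.6% and CTL1 lowest at 7.88%. With copies of mitochondrial genes on chromosome 1 added, the shares were 44.6% ± 9.19 in DMH, 35.9% ± 9.48 in DM and 22.9% ± 10.5 in CTL. Exact two-sided permutation tests over 70 arrangements gave p = 0.0571 for DMH against CTL, 0.2 for DM against CTL and 0.257 for DMH against DM, or 0.171, 0.257 and 0.257 after adjustment over these 3. Retinas are mentioned in the extraction protocol, although the source label is liver. Summed over 8 retina genes, 3 of them (Prph2, Crx and Rpe65) at 0 counts in all libraries, levels were 9.95 to 25.5 CPM in DMH, 2.99 to 22.9 in DM and 13.8 to 54.2 in CTL, against 34800 to 75200 CPM for 10 hepatocyte genes. CPM is a gene's count divided by its library's total and put on a fixed scale.

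Per length, the 10 genes differed widely in level. On the deposited FPKM scale (reads scaled for gene length and library total) the means over 12 libraries ran in the order Bax 13.2, Trp53inp1 10.1, Ccng1 6.80, Mdm2 3.96, Sesn2 3.18, Aen 1.88, Phlda3 1.29, Cdkn1a 1.19, Eda2r 0.382 and Zmat3 0.327 FPKM. The order is of means only: the ranges of all neighbours overlapped, and Bax at 7.86 to 19.5 FPKM and Trp53inp1 at 2.42 to 23.0 FPKM cannot be separated. They also differed in how alike the libraries of a group were. The pooled SD within groups on log2 CPM was lowest for Aen at 0.229 and Ccng1 at 0.248, and highest for Mdm2 at 1.21 and Cdkn1a at 1.43, beside a median of 0.415 over all tested genes. Cdkn1a varied more within groups than 97.1% of the tested genes and Mdm2 more than 95.2%.

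The comparisons of DMH and of DM with CTL asked how both groups differed from CTL, and share the CTL libraries. In DMH, Eda2r, Phlda3, Aen, Zmat3 and Ccng1 were higher than in CTL and passed the test, and in DM Ccng1 did. Cdkn1a, Mdm2, Eda2r and Trp53inp1 had the largest pooled SD within groups (1.43, 1.21, 0.962 and 0.687 on log2 CPM). A large spread was thus not confined to the genes that were not called. Levels of single genes by library or group below are CPM scaled with TMM factors, which correct for differences in library composition. They are listed in the order of the library numbers 1 to 4. Sums over marker genes, and the CPM given with overlapping or sequence-sharing genes, are plain CPM without these factors. Folds are log2 values with their standard error (SE), and a gene was called at an edgeR adjusted p under 0.05.

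**Figure D2:**
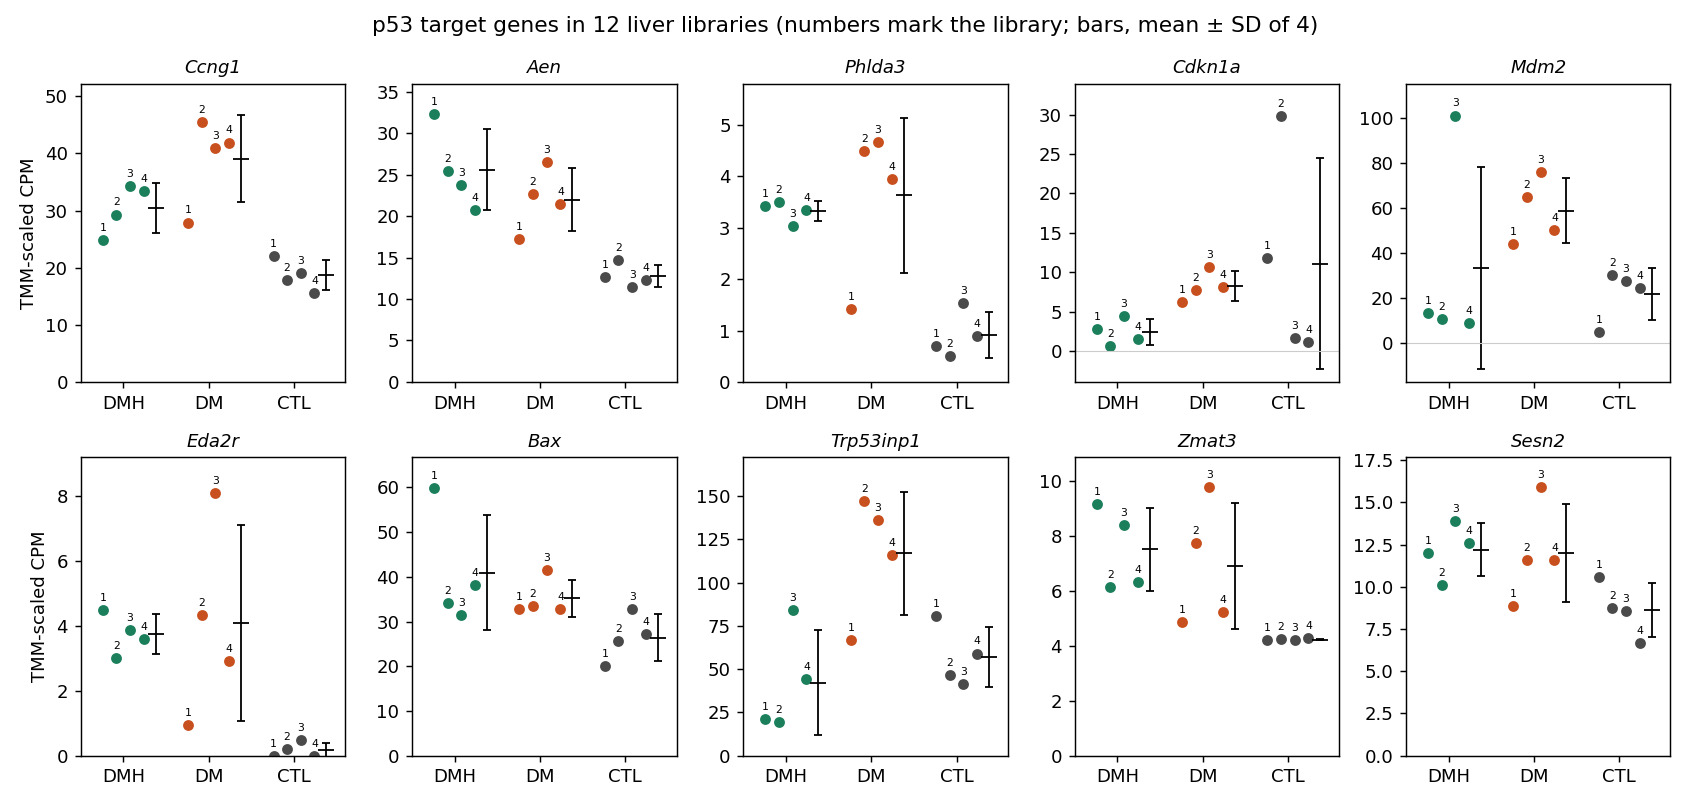
TMM-scaled CPM of the 10 p53 target genes in each of 12 liver libraries, by group (DMH, DM, CTL; numbers mark the library, black bars the mean ± SD of 4). All DMH and DM libraries of Ccng1, Aen, Eda2r and Zmat3 lie above all CTL libraries, while Cdkn1a, Mdm2 and Trp53inp1 overlap between DMH and CTL.

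Ccng1 encodes cyclin G1, which recruits a phosphatase to Mdm2 (ENSMUSG00000020326, chromosome 11, 40748552 to 40755311 on GRCm38, as for all genes here). It stood at 24.8, 29.3, 34.3 and 33.4 CPM in DMH, at 27.9, 45.5, 41.0 and 41.9 CPM in DM, and at 22.0, 17.9, 19.1 and 15.6 CPM in CTL. All 8 DMH and DM libraries lay above all 4 CTL libraries. Means were 30.5 ± 4.36 CPM in DMH, 39.1 ± 7.68 in DM and 18.7 ± 2.64 in CTL (SD, n = 4 each). Ccng1 rose by 0.71 ± 0.18 in DMH against CTL (edgeR adjusted p = 0.0255) and by 1.07 ± 0.18 in DM against CTL (adjusted p = 0.041). In DM it ranked 24 of all tested genes by p. The DMH call ended without CTL2, CTL4 or DMH3 (adjusted p up to 0.0647), and the DM call when any CTL library, DM2, DM3, DM4 or DMH2 was left out (up to 0.122).

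Aen encodes an exonuclease that digests DNA during p53-driven apoptosis (ENSMUSG00000030609, chromosome 7, 78895854 to 78911209). Its levels were 32.3, 25.5, 23.8 and 20.8 CPM in DMH, 17.2, 22.7, 26.5 and 21.5 CPM in DM, and 12.7, 14.7, 11.5 and 12.3 CPM in CTL. The CTL libraries were again below every other library, and DM1 was the lowest of the rest. Aen rose by 1.0 ± 0.18 in DMH against CTL (adjusted p = 0.0118, at most 0.033 without any 1 library) and stood at 0.78 ± 0.18 in DM against CTL (adjusted p = 0.0752).

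Eda2r is a receptor of the tumour necrosis factor family that binds ectodysplasin A2 (ENSMUSG00000034457, chromosome X, 97333840 to 97377216). The raw counts were 58, 42, 69 and 55 in DMH, 14, 54, 132 and 46 in DM, and 0, 4, 8 and 0 in CTL. On the CPM scale this is 4.5, 3.0, 3.88 and 3.61 in DMH, 0.947, 4.34, 8.11 and 2.93 in DM, and 0, 0.199, 0.473 and 0 in CTL. The groups did not overlap with CTL, although DM1, at 14 reads, was near CTL3 at 8. A count of 0 allows up to 3 counts, or 0.191 CPM, in CTL1 and CTL4, an allowance for counting error only. Mean CPM in DMH was 22.3 times that in CTL, and mean CPM in DM was 24.3 times that in CTL. The fitted folds, which depend on the small CTL counts, were 4.38 ± 0.83 in DMH (adjusted p = 0.012, at most 0.0408 without any 1 library) and 4.5 ± 0.83 in DM (adjusted p = 0.0563, and 0.0352 to 0.135 without 1 library).

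Phlda3 encodes a small lipid-binding protein that competes with the kinase Akt for the membrane (ENSMUSG00000041801, chromosome 1, 135766119 to 135769136). It was measured at 3.42, 3.5, 3.04 and 3.35 CPM in DMH, at 1.42, 4.5, 4.67 and 3.94 CPM in DM, and at 0.701, 0.497, 1.54 and 0.890 CPM in CTL. The DMH libraries were nearly equal and above all of CTL, while DM1 lay below CTL3. Phlda3 rose by 1.87 ± 0.41 in DMH against CTL (adjusted p = 0.0159, at most 0.0483 without any 1 library). In DM its fold was 2.00 ± 0.41 (adjusted p = 0.0626, and 0.035 to 0.155 without 1 library). It passed without DM1 (fold 2.28, adjusted p = 0.035) or DMH3, and in the other 10 of these 12 fits it did not.

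Zmat3 encodes a zinc finger protein that binds RNA (ENSMUSG00000027663, chromosome 3, 32334792 to 32366014). In DMH it stood at 9.16, 6.14, 8.39 and 6.31 CPM, in DM at 4.87, 7.72, 9.76 and 5.22 CPM, and in CTL at 4.21, 4.23, 4.20 and 4.26 CPM. The 4 CTL libraries were almost identical and below all others. Zmat3 rose by 0.83 ± 0.25 in DMH against CTL (adjusted p = 0.0413). That call ended without any 1 of CTL1 to CTL4, DM2 or DMH1 to DMH3 (adjusted p up to 0.09). In DM the fold was 0.71 ± 0.25 (adjusted p = 0.154).

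Bax encodes the pore-forming protein that permeabilises mitochondria in apoptosis (ENSMUSG00000003873, chromosome 7, 45461697 to 45466898). Its levels were 59.8, 34.2, 31.4 and 38.1 CPM in DMH, 32.9, 33.5, 41.5 and 32.8 CPM in DM, and 20.1, 25.7, 32.7 and 27.3 CPM in CTL. DM and CTL did not overlap, though DM4 and CTL3 nearly touched, and DMH3 lay below CTL3. The folds were 0.63 ± 0.22 in DMH (adjusted p = 0.0661) and 0.41 ± 0.22 in DM (adjusted p = 0.328), and DESeq2 called the DMH difference (0.65, adjusted p = 0.0339). Exons of Bax share 192 bases with Gm45808, which averaged 0.114 CPM.

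Sesn2 encodes sestrin 2, a sensor of leucine that dampens growth signalling through mTORC1 (ENSMUSG00000028893, chromosome 4, 132492032 to 132510501). It lay at 12, 10.1, 13.9 and 12.6 CPM in DMH, at 8.86, 11.6, 15.9 and 11.6 CPM in DM, and at 10.6, 8.75, 8.57 and 6.67 CPM in CTL. CTL1 overlapped both other groups. The folds were 0.49 ± 0.21 in DMH (adjusted p = 0.12) and 0.47 ± 0.21 in DM (adjusted p = 0.246).

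Cdkn1a encodes p21, the inhibitor of cyclin-dependent kinases through which p53 halts the cell cycle (ENSMUSG00000023067, chromosome 17, 29090976 to 29100727). Levels were 2.79, 0.643, 4.45 and 1.58 CPM in DMH, 6.22, 7.80, 10.7 and 8.14 CPM in DM, and 11.8, 29.8, 1.66 and 1.14 CPM in CTL. CTL split into a high pair, CTL1 and CTL2, and a low pair, CTL3 and CTL4, with every DM library between these pairs. The folds were -2.22 ± 0.90 in DMH against CTL (edgeR adjusted p = 0.109) and -0.44 ± 0.84 in DM against CTL (adjusted p = 0.827). DESeq2 called Cdkn1a lower in DMH than in CTL (-2.20, adjusted p = 0.0308). Without CTL2 the DM fold turned to 0.77 and the DMH fold was -0.99. DMH lay below DM in all libraries (-1.79 ± 0.89, adjusted p = 0.279).

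Mdm2 encodes the ligase that degrades p53 (ENSMUSG00000020184, chromosome 10, 117688875 to 117710758). The values were 13.1, 10.6, 101 and 8.61 CPM in DMH, 44.0, 64.6, 76.0 and 50.2 CPM in DM, and 4.72, 30.2, 27.4 and 24.4 CPM in CTL. DMH3 was the highest of all libraries, while DMH1, DMH2 and DMH4 were below every DM and CTL library but CTL1. The folds were 0.62 ± 0.77 in DMH against CTL (adjusted p = 0.617) and 1.44 ± 0.78 in DM against CTL (adjusted p = 0.348). Without DMH3 the first turned to -0.98.

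Trp53inp1 encodes a nuclear protein that aids p53 and autophagy (ENSMUSG00000028211, chromosome 4, 11156431 to 11174379). It stood at 21.1, 19.5, 84.0 and 44.0 CPM in DMH, at 67.0, 147, 136 and 116 CPM in DM, and at 80.7, 46.6, 41.5 and 59.0 CPM in CTL. DMH1 and DMH2 were the lowest and DM2 to DM4 the highest of the 12. The folds were -0.43 ± 0.44 in DMH against CTL (adjusted p = 0.531) and 1.03 ± 0.44 in DM against CTL (adjusted p = 0.228). Between DMH and DM the fold was -1.47 ± 0.44 (edgeR adjusted p = 0.133), with DMH3 overlapping DM1, and DESeq2 called this difference (adjusted p = 0.0358).

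**Figure D3:**
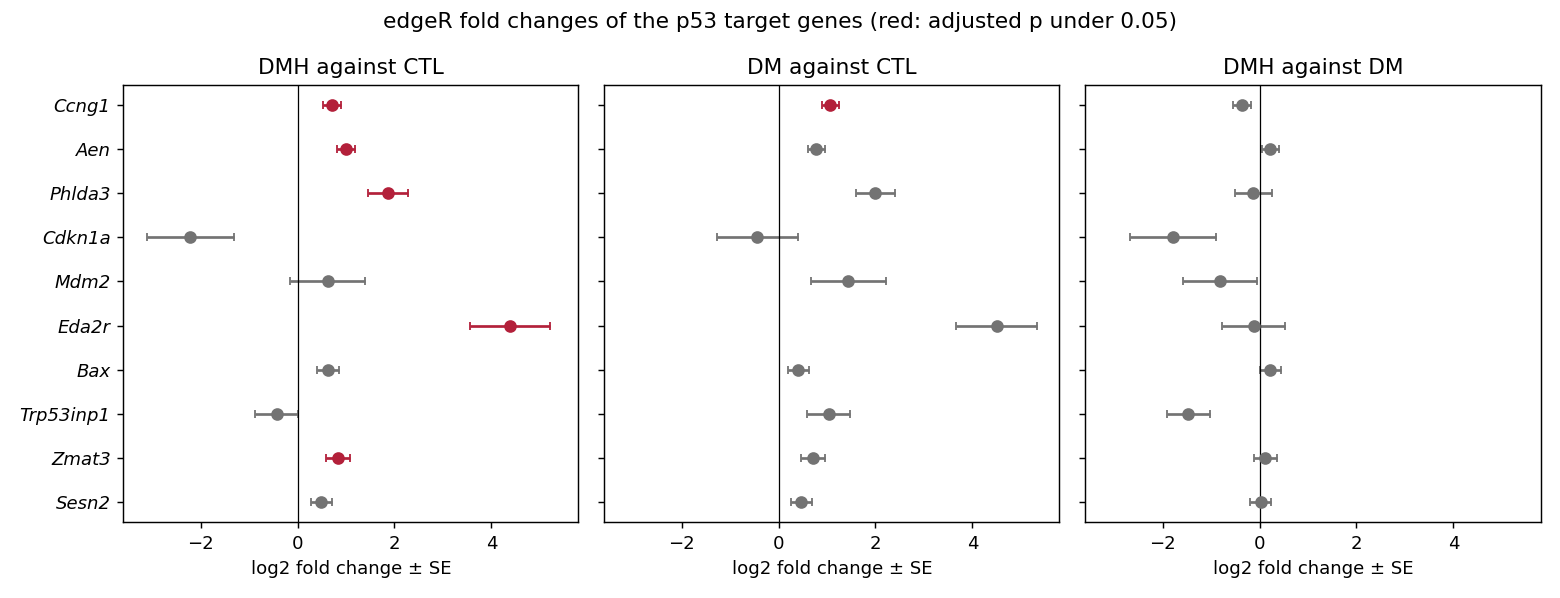
Log2 fold changes ± SE from edgeR for the 10 p53 target genes in the 3 comparisons (red, adjusted p under 0.05). DMH against CTL has 5 red points, DM against CTL has 1 at Ccng1, and DMH against DM has 0.

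Because the 10 genes were chosen with earlier results of these data known, the shares of all genes beside them are not a test. Over the set, 5 of the 10 genes were called higher in DMH than in CTL and 0 lower, where 7.25% of all tested genes were called higher and 8.15% lower. At an unadjusted p under 0.05, 7 were higher and 1, Cdkn1a, lower, beside 16.0% and 17.0% of all genes. DMH and CTL libraries did not overlap, with DMH higher, for 5 of the 10 and for 8.64% of all genes. The median fold of the 10 was 0.67, against -0.01 over all genes. DESeq2 called 6 higher, with Bax added, and 1 lower, Cdkn1a. With the mitochondrial percentage as a covariate, 0 of the 10 and 0 of all genes were called in this comparison (0.394 to 0.476 for the 5). Their folds were then 0.85 for Ccng1, 0.90 for Aen, 1.49 for Phlda3, 4.30 for Eda2r and 0.69 for Zmat3.

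In DM against CTL, 1 of the 10 was called higher and 0 lower, where 0.150% of all genes were called higher and 0.0683% lower. At an unadjusted p under 0.05, 7 were higher and 0 lower, beside 8.43% and 10.4% of all genes. Groups did not overlap, with DM higher, for 6 of the 10 and for 7.32% of all genes. The median fold was 0.91 against -0.03 over all genes. DESeq2 called 4 of the 10 (Ccng1, Aen, Phlda3 and Eda2r), and edgeR on the 8 DM and CTL libraries called 3 (Ccng1, Aen and Eda2r). The call of Ccng1 ended with the mitochondrial percentage as a covariate (fold 1.16, adjusted p = 0.153).

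Between DMH and DM edgeR called 0 of the 10, where 0.0273% of all genes were called higher and 0.00683% lower. At an unadjusted p under 0.05, 0 were higher and 1, Trp53inp1, lower, beside 10.4% and 10.3% of all genes, and DESeq2 called that 1. The median fold was -0.13, against 0.03 over all genes. For the 5 genes called in DMH against CTL, the 95% intervals of the DMH minus DM fold were -0.75 to 0.04 for Ccng1, -0.17 to 0.61 for Aen, -0.96 to 0.71 for Phlda3, -1.54 to 1.29 for Eda2r and -0.41 to 0.66 for Zmat3. These intervals leave room for differences in both directions.

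**Figure D4:**
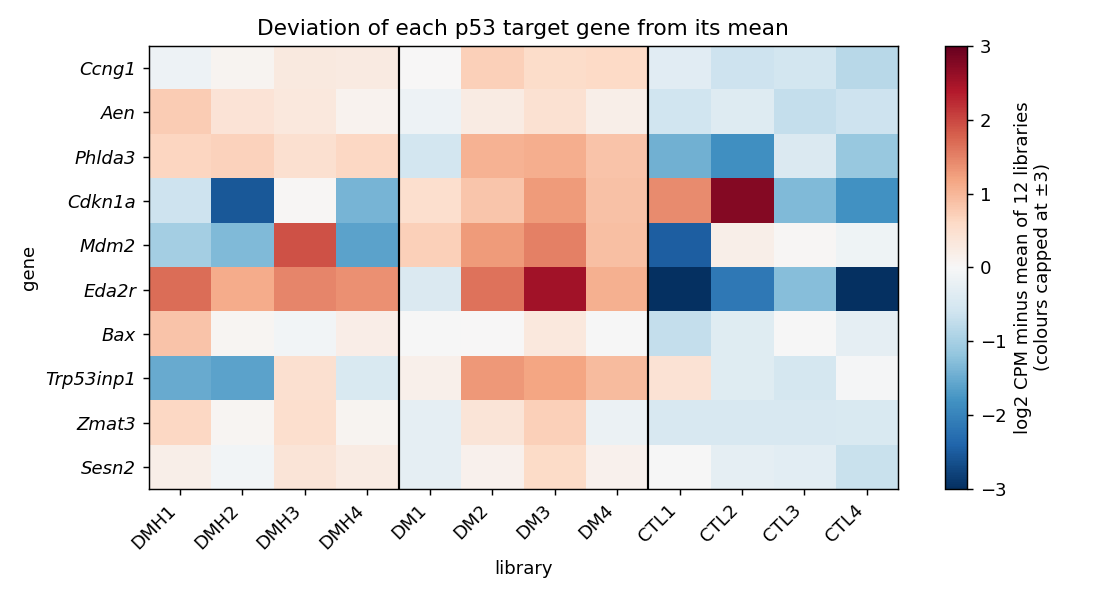
Log2 CPM of each p53 target gene minus its mean over the 12 libraries (columns, DMH then DM then CTL; colours capped at ±3). Phlda3, Eda2r, Aen and Ccng1 are low in the CTL columns, while Cdkn1a is high in CTL1 and CTL2 and Mdm2 is low in CTL1, DMH1, DMH2 and DMH4.

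The libraries did not move all 10 genes together. Averaged over the 10, the deviation from each gene's mean on the log2 scale was 0.14, -0.32, 0.58 and -0.05 in DMH, -0.03, 0.75, 1.02 and 0.54 in DM, and -0.77, -0.36, -0.56 and -0.95 in CTL. DM3 was the highest library and CTL4 the lowest, and DM1 lay well below the other DM libraries. Pattern over the 12 libraries was compared as the mean absolute difference of centred log2 CPM. Sesn2 was the member nearest to Ccng1 (0.249, rank 40 of all tested genes), followed by Zmat3 (0.285, rank 147) and Aen (0.286, rank 156). Bax (0.394) and Phlda3 (0.533) were next. Trp53inp1 (0.623), Mdm2 (1.04), Cdkn1a (1.13) and Eda2r (1.42) lay farther from Ccng1 than the median of all genes, 0.574. The genes nearest to Ccng1 of all tested were Rttn (0.157), Stard13 (0.178), Plscr2 (0.191), Pom121 (0.199) and Fbxl4 (0.212), beside a median of 0.574. The nearest to Cdkn1a were Rabgef1 (0.648), Wapl (0.657) and the pseudogene Gm7049 (0.706), with a median of 1.34 over all genes, and Trp53inp1 was its nearest member (0.905).

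The wider p53 pathway was described from lists drawn from general knowledge, but with earlier results of these data known. The lists are therefore not an independent check on the 10 genes. Shares over all tested genes are given first, for this list and those that follow. By edgeR, 7.25% were called higher and 8.15% lower in DMH against CTL, and 0.150% and 0.0683% in DM against CTL. In DMH against DM they were 0.0273% and 0.00683%. At an unadjusted p under 0.05 they were 16.0% and 17.0%, 8.43% and 10.4%, and 10.4% and 10.3%, in the same order. Of 40 other p53 targets, 38 were tested, and in DMH against CTL 7 were called higher and 2 lower, with a median fold of 0.41. The smallest p belonged to Psrc1, a microtubule-binding protein, at 17.8, 10.6, 5.57 and 3.35 CPM in DMH and 0.446, 0.547, 0.828 and 0.763 CPM in CTL (3.84 ± 0.56, adjusted p = 0.00931). It was followed by the stress kinase Plk2 at 44.2, 37.0, 25.5 and 20.4 CPM in DMH and 5.23, 10.2, 8.93 and 7.56 CPM in CTL (1.99 ± 0.32, adjusted p = 0.0108). In both, DMH exceeded CTL in every library. The death receptor gene Tnfrsf10b rose by 2.27 (adjusted p = 0.014), the growth arrest gene Gadd45a by 1.65 (0.0186), the death domain adaptor gene Pidd1 by 1.14 (0.0338), the repair endonuclease gene Ercc5 by 0.60 (0.0333) and the tetraspanin gene Cd82 by 2.15 (0.0494). The called falls were Ei24, a protein of the endoplasmic reticulum, at -0.82 (0.0178) and the kinase gene Plk3 at -1.18 (0.0436). Psrc1, Plk2 and Tnfrsf10b kept their calls without any 1 library, while all of the other 6 lost theirs without CTL2, and 5 of them also without DMH1 or further libraries (adjusted p up to 0.114). Exons of Gadd45a overlap the antisense gene E230016M11Rik (2.56 CPM beside 2.80 for Gadd45a).

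Against CTL, DM had 0 of the 38 called by edgeR, with a median fold of 0.19. At an unadjusted p under 0.05, 7 were higher and 0 lower, beside 8.43% and 10.4% of all genes. Those with the smallest p in each direction were Psrc1 (2.26) and the ribosomal protein-like gene Rps27l (0.81) above CTL, and the autophagy gene Dram1 (-1.50) and the BH3-only gene Pmaip1 (-1.21) below it. Between DMH and DM edgeR called 0, and the median was 0.11. At an unadjusted p under 0.05, 6 were higher and 3 lower, beside 10.4% and 10.3% of all genes. Gadd45a (1.21) and Psrc1 (1.58) had the smallest p of those above DM, and Rps27l (-0.69) and Ei24 (-0.53) of those below. Of these named genes DESeq2 called Psrc1 (adjusted p = 0.00317) and Rps27l (0.0112) in DM against CTL, and Gadd45a (0.0416), Psrc1 (0.0439) and Rps27l (0.0495) in DMH against DM.

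Trp53, the gene of p53 itself, stood at 22.7, 18.9, 27.7 and 16.1 CPM in DMH, at 13.2, 12.1, 19.5 and 16 CPM in DM, and at 10.2, 13.4, 11.1 and 13.8 CPM in CTL. Every DMH library lay above CTL, and DM1 and DM2 lay within the CTL range. Trp53 rose by 0.82 ± 0.21 in DMH against CTL (adjusted p = 0.0257, lost without CTL1, CTL2, CTL3, DMH1 or DMH3, up to 0.0637). It stood at 0.33 ± 0.21 in DM against CTL (adjusted p = 0.426) and at 0.49 ± 0.21 in DMH against DM (adjusted p = 0.215). Mdm4, a relative of Mdm2 that binds p53 without destroying it, ranged from 37.0 to 239 CPM in DMH, from 101 to 157 CPM in DM and from 24 to 62.5 CPM in CTL. Its folds were 1.38 ± 0.49 in DMH against CTL (adjusted p = 0.0763), 1.42 ± 0.49 in DM against CTL (0.155) and -0.04 ± 0.48 in DMH against DM (0.971). DESeq2 called Mdm4 higher in both groups against CTL (1.41, adjusted p = 0.023 in DMH, and 1.44, adjusted p = 0.0499 in DM).

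Of 25 genes of p53 and its regulators 22 were tested. In DMH against CTL 3 were called, all higher: Trp53, the DNA damage kinase gene Atr (0.96, adjusted p = 0.0157) and the damage adaptor gene Trp53bp1 (0.65, adjusted p = 0.0424), whose exons overlap Tubgcp4 on the other strand (5.90 CPM beside 15.9). Atr kept its call without any 1 library and Trp53bp1 in 6 of 12 such fits. Below CTL the smallest p belonged to Rpl11 (-0.47) and Cop1 (-0.26), and the median of the list was 0.33. In DM against CTL edgeR called 0, and the median was 0.16. At an unadjusted p under 0.05, 4 were higher and 1 lower, beside 8.43% and 10.4% of all genes. Mdm4, the acetylase gene Ep300 (0.51), Rpl5 (-0.35) and the acetylase gene Kat5 (-0.41) had the smallest p of their direction. Rpl5 shares 27.4% of its 25-base words with other genes. Rpl11 shares 19.1%, mostly with Gm10288 (245 CPM), and Cop1 shares 13.3%, mostly with Gm6206 (6.06 CPM). Kat5 overlaps Rnaseh2c (39.1 CPM beside 12.3), so the values of these 4 genes are uncertain. Shared words also limit Rps27l (17.9%), Mdm4 (17.3%, mostly with Mdm4-ps), Tnfrsf10b (14.5%) and Trp53 (12.8%, mostly with Trp53-ps). Mdm4-ps averaged 0.339 CPM and Trp53-ps 0.157 CPM. Between DMH and DM edgeR called 0, and the median was 0.07. At an unadjusted p under 0.05, 4 were higher and 1 lower, beside 10.4% and 10.3% of all genes. The smallest p in each direction were those of Atr (0.77) and Kat5 (0.73) above DM and of the kinase gene Chek1 (-0.95) and Cop1 (-0.24) below it. DESeq2 called Atr there (adjusted p = 0.0264).

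Family relatives of the 10 genes were taken as a further list of 19, with 16 tested. In DMH against CTL 1 was called, Phlda1, a relative of Phlda3 (1.49, adjusted p = 0.0462, kept in 3 of 12 fits without 1 library). Tnfrsf19 (0.59) was next by p above CTL, Zmat2 (-0.58) and Trp53inp2 (-0.67) had the smallest p below it, and the median was -0.02. In DM against CTL edgeR called 0, with 1 higher and 0 lower at an unadjusted p under 0.05, and the median was 0.05, with Tnfrsf19 (0.78), Zmat1 (1.01), Isg20 (-0.94) and the survival gene Mcl1 (-0.32) at the smallest p of their direction. Between DMH and DM it called 0, with 1 higher and 2 lower at an unadjusted p under 0.05, and the median was -0.08, with Phlda1 (1.49), Isg20 (0.95), Ccng2 (-0.66) and Trp53inp2 (-0.69) at the smallest p of their direction. DESeq2 called Phlda1 there (adjusted p = 0.0328).

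p21 allows the DREAM complex to silence cell cycle genes, so 16 of these were listed, of which 11 had enough counts. For DM against CTL all 11 had negative folds, with a median of -1.15, and 0 were called by edgeR. At an unadjusted p under 0.05, 7 were lower, beside 10.4% of all genes. The proliferation marker Mki67 stood at -2.43 ± 0.70 (edgeR adjusted p = 0.115) and the topoisomerase gene Top2a at -2.03 ± 0.68 (adjusted p = 0.139), and DESeq2 called both (0.00962 and 0.0449). The mean deviation of the 11 on the log2 scale was -1.0 to -0.37 in DM and 0.41 to 0.69 in CTL, so the groups did not overlap. In DMH it ran from -0.54 to 1.31, with DMH1 the highest of all libraries. The median fold was -0.24 in DMH against CTL and 1.44 in DMH against DM, and edgeR called 0 in either, with 0 higher and 1 lower at an unadjusted p under 0.05 in DMH against CTL. Birc5 (0.34), Foxm1 (0.38), the kinase gene Aurka (-1.03) and Kif23 (-0.62) had the smallest p of their direction in DMH against CTL, and DESeq2 called Aurka (adjusted p = 0.029). In DMH against DM 6 were higher and 0 lower at an unadjusted p under 0.05, led by Birc5 (1.44) and Plk1 (1.67), and Aurka (-0.41) alone was below. DESeq2 called Birc5 there (adjusted p = 0.0414). Plk1 shares 20.6% of its 25-base words with the pseudogene Plk-ps1.

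**Figure D5:**
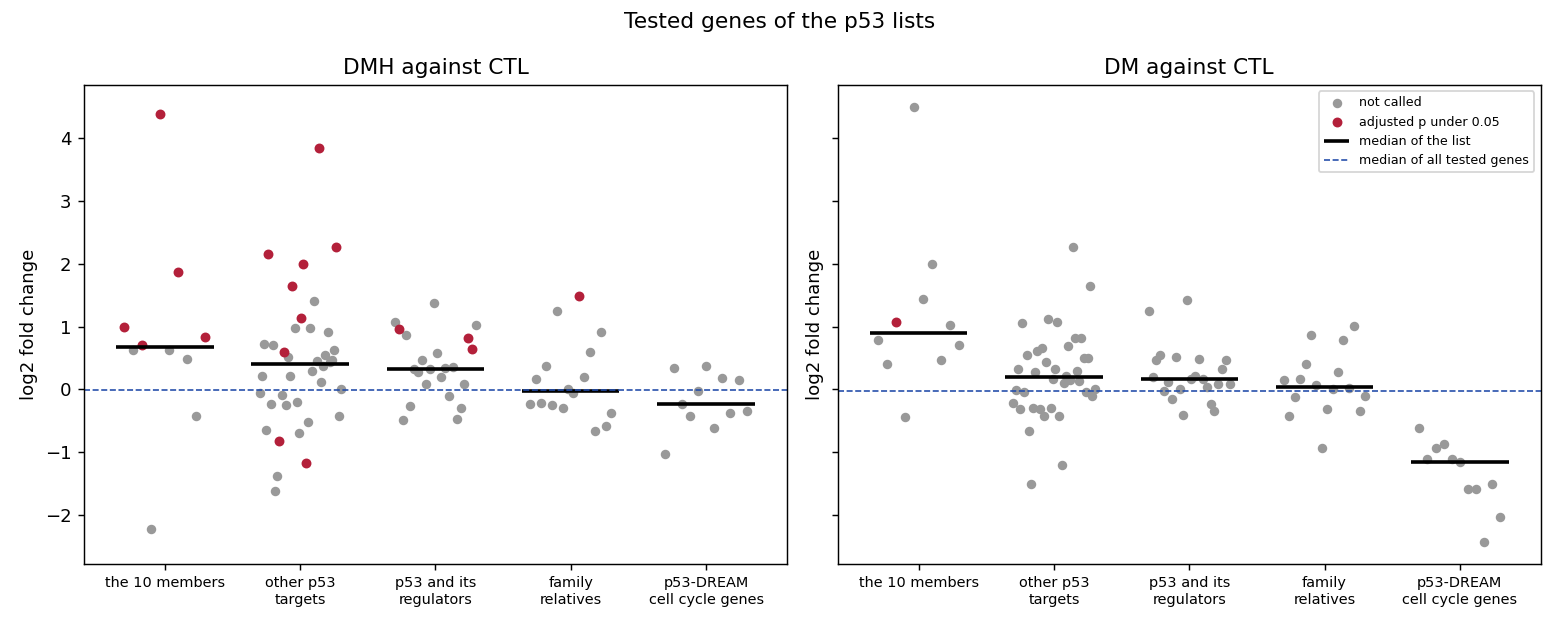
Log2 fold changes of each tested gene in 5 p53 lists, for DMH against CTL and DM against CTL (red, adjusted p under 0.05; black lines, list medians; dashed line, median of all tested genes). The 10 members have medians of 0.67 and 0.91, and the p53-DREAM cell cycle genes of -0.24 and -1.15.

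Sesn2 also answers to the integrated stress response, and sestrins and Ccng2 to FoxO factors, so both pathways were listed. Of 12 stress response genes 11 were tested, with medians of -0.07 in DMH against CTL, 0.13 in DM against CTL and -0.20 in DMH against DM. The pseudokinase gene Trib3 rose by 1.07 in DMH against CTL (adjusted p = 0.0231), and the transcription factor gene Cebpb was lower (-0.93, adjusted p = 0.0394). Cebpb kept its call in 1 of 12 fits without 1 library and Trib3 in 9, and Cebpb overlaps Tmem189 (19.7 CPM beside 153). Shmt2 (0.34) and Ddit3 (-0.80) were next by p in each direction in that comparison. Vldlr (1.29), Trib3 (0.85), Asns (-1.90) and Psat1 (-0.65) had the smallest p of each direction in DM against CTL, where edgeR called 0 and 2 were higher and 1 lower at an unadjusted p under 0.05. Asns (0.88), Shmt2 (0.14), Cebpb (-0.92) and Vldlr (-0.93) had the smallest of each direction in DMH against DM, where it called 0 and 0 were higher and 4 lower at an unadjusted p under 0.05. DESeq2 called Vldlr (adjusted p = 0.0164) and Trib3 (0.0443) in DM against CTL and Cebpb (0.0453) in DMH against DM. Ddit3 overlaps Mars on the other strand (37.3 CPM beside 18.2), so its value is uncertain.

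Of 10 FoxO targets, all tested, 1 was called in DMH against CTL, the insulin-repressed gene Igfbp1 (-2.78, adjusted p = 0.037, kept in 4 of 12 fits without 1 library). Bcl6 (0.46) and Cited2 (0.38) had the smallest p above CTL, Pink1 (-0.44) was next below it, and the median was -0.23. For DM against CTL the median was 0.07, edgeR called 0 and 0 passed an unadjusted p of 0.05, with Cited2 (0.42), Bcl6 (0.42), Igfbp1 (-1.0) and Insr (-0.73) at the smallest p of their direction. In DMH against DM it was -0.30, edgeR called 0, and 0 were higher and 3 lower at an unadjusted p under 0.05, with Insr (0.49), Irs2 (0.20), Sod2 (-0.39) and Igfbp1 (-1.78) at the smallest p of their direction. Sod2 shares 29% of its 25-base words with other genes and is uncertain.

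Markers of some other liver cells moved between the same groups, while the sums of endothelial, stellate and cholangiocyte genes overlapped between all groups. In bulk tissue, fewer cells of a type and less RNA per cell cannot be told apart. Summed over 12 Kupffer cell genes, none at 0 in all libraries, levels were 140 to 504 CPM in DMH, 81.6 to 223 in DM and 423 to 964 in CTL, with all 12 folds negative against CTL in both groups. Neutrophil genes (8) summed to 1.42 to 15.3 CPM in DMH, 2.30 to 6.85 in DM and 8.24 to 345 in CTL, and lymphocyte genes (12) to 27.6 to 46.0 CPM in DMH, 17.5 to 79.2 in DM and 155 to 243 in CTL. Of the 8 lymphocyte genes tested, 2 had positive and 6 negative folds in DMH, and 3 and 5 in DM, against CTL. Their mean TMM-scaled log2 deviations overlapped, at -0.76 to 0.30 in DMH, -0.68 to 0.10 in DM and -0.14 to 0.82 in CTL. Endothelial genes (10) summed to 172 to 301 CPM in DMH, 139 to 242 in DM and 188 to 338 in CTL, and stellate cell genes (10) to 99.9 to 231 CPM in DMH, 93.6 to 173 in DM and 79.9 to 243 in CTL. Cholangiocyte genes (7) summed to 51.0 to 107 CPM in DMH, 50.8 to 91.6 in DM and 34.1 to 82.2 in CTL. The hepatocyte genes summed to 34800 to 51800 CPM in DMH, 42200 to 55000 in DM and 60600 to 75200 in CTL. All these sums are plain CPM, whose totals include the mitochondrial reads, so a larger mitochondrial share lowers them. On the TMM-scaled log2 scale the mean deviation of the hepatocyte genes was -0.82 to -0.30 in DMH, -0.05 to 0.31 in DM and 0.07 to 0.66 in CTL. There DM and CTL overlapped, with 4 positive and 6 negative folds and a median of -0.18. In DMH against CTL 2 of the 10 hepatocyte genes and 1 of the 12 Kupffer genes were called lower, beside 8.15% of all genes. All 10 hepatocyte folds were negative there, with a median of -0.54, and 4 were lower at an unadjusted p under 0.05. Of the Kupffer genes, 7 were lower at that threshold in DMH and 12 in DM, beside 17.0% and 10.4% of all genes. Their median folds against CTL were -1.25 in DMH and -2.13 in DM. Of the lymphocyte genes 1 was called lower in DMH and 1 in DM against CTL, beside 8.15% and 0.0683% of all genes. No gene of the other marker lists was called by edgeR in either group against CTL, and all 3 tested neutrophil genes were lower at an unadjusted p under 0.05 in both. The part of these markers in the levels of the p53 targets was not tested.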

How the data were processed

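RNA-seq of 12 mouse liver libraries was used, 4 each of DMH, DM and CTL. The authors deposited whole-number read counts per gene, and FPKM beside them. FPKM equalled the count over 1 fixed length and the library total within 1% for 100% of 24529 genes. FastQC 0.11.8, Trimmomatic 0.36, HISAT2 2.1.0, DESeq2 and GRCm38 are named in the labels and submitters' processing notes; for annotation release and strand setting, nothing is given in the sources used here.

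Counts were filtered with filterByExpr (minimum count 10), scaled with TMM factors and fitted over all 12 libraries with edgeR 4.0.16 (R 4.3.3, quasi-likelihood test, Benjamini-Hochberg adjustment over 14643 genes, threshold 0.05). Log2 CPM used a prior count of 2. Scripts were tested on simulated data. Alternatives were DESeq2 1.42.0, limma 3.58.1 on log2(FPKM + 1), other filters, covariates and fits without 1 library. Replicates differed by more than sampling noise (chi-square per degree of freedom 39.5 to 432). Library totals of 13430122 to 17038017 counts set the precision.

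The 10 genes and all lists were chosen with earlier results of these data known. Named list genes were those called in any comparison, the 2 with the smallest p in each direction per list and comparison, and Trp53 and Mdm4; the genes nearest to Ccng1 (5) and Cdkn1a (3) were also named. Promoter sequences and starts are from RefSeq on GRCm38.p6; Trp53inp1 and Zmat3 were not matched. Gene coordinates are on GRCm38.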

Additional observations from a re-analysis of the deposited data

Results flagged for a closer look

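Of 30 groups of 4 libraries examined for the 10 genes, 2 held a library far from the other 3; chance gives about 1 in 20. Mdm2 stood at 101 CPM in DMH3, with 8.61 to 13.1 CPM in the other DMH libraries, a gap of 0.951 of the range. Bax stood at 41.5 CPM in DM3, with 32.8 to 33.5 CPM in the other DM libraries, a gap of 0.92 of the range.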

How the results depend on the processing

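In DMH against CTL, 5 of the 10 genes and 2255 of all genes (1062 higher, 1193 lower) were called. The counts were 0 and 0 with mitochondrial percentage in the model, 3 and 629 with only these 8 libraries, and 1 and 1005 (264 higher, 741 lower) with limma on log2(FPKM + 1), where the median of the 10 was 0.33. Adding 1 shrinks the folds of genes with low FPKM, and FPKM rests on plain library totals without TMM factors. Medians from limma, here and below, are thus not on the scale of the edgeR medians. DESeq2 called 7 (6 higher, 1 lower) and 3280. A rule of fold 2 with an unadjusted p under 0.05 gave 3 of the 10 (Phlda3 and Eda2r higher, Cdkn1a lower) and 1872 of all genes (984 higher, 888 lower). Without 1 library they were 3 to 5 (3 without CTL2, CTL4 or DMH3) and 623 to 2967, with medians of 0.66 to 0.82.

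In DM against CTL, 1 of the 10 and 32 of all genes (22 higher, 10 lower) were called. The counts were 2 and 65 with no filter, 0 and 3 with that percentage in the model, 3 and 367 with only these 8 libraries, 4 and 929 with DESeq2, 0 and 77 (14 higher, 63 lower) with limma, where the median of the 10 was 0.49, and 4 and 1154 by the fold rule. Without 1 library they were 0 to 3 and 7 to 248, with medians of 0.83 to 1.05.

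In DMH against DM, 0 of the 10 and 5 of all genes were called by edgeR. DESeq2 gave 1 and 717, the fold rule 1 and 749, a strict filter 12 of all genes and the mitochondrial percentage 2. Without 1 library they were 0 to 0 and 1 to 155, with medians of -0.40 to 0.13.

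Shared replicate numbers did not pair the libraries (r of deviations -0.129 to 0.112 for 12 same-number pairs, -0.143 to 0.131 for 36 others). With a replicate block 3 of the 10 and 1001 of all genes were called in DMH against CTL, 0 and 1 in DM against CTL, and 1 of all genes in DMH against DM. The block turned Cdkn1a in DM against CTL to 0.06 and Eda2r in DMH against DM to 0.26.

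Other turns of sign, none of a called gene, were Cdkn1a in DM against CTL with that percentage in the model (0.84) or without 1 library (-0.81 to 0.77), and Mdm2 in DMH against CTL with limma (-0.01) or without 1 library (-0.98 to 0.98). With it in the model Psat1 in DM against CTL was 0.12 and Foxm1 in DMH against CTL -0.32 (-0.09 to 0.69 without 1 library). In DMH against DM, Mdm4 was 0.02 with the strict filter and -0.56 to 0.29 without 1 library. Without 1 library, Phlda3 ran from -0.37 to 0.04, Eda2r from -0.43 to 0.48, Sesn2 from -0.08 to 0.21 and Irs2 from -0.01 to 0.80 in that comparison. The difference in mitochondrial percentage without 1 library was 12.2 to 17.4 for DMH against CTL, 5.55 to 11.4 for DM against CTL and 3.48 to 9.14 for DMH against DM. The cause of these changes was not tested. Low counts limit the precision of Eda2r and Phlda3, and of other genes named here. Among these were Tnfrsf10b, at 5, 5, 9 and 7 reads in CTL, and Psrc1, at 7, 11, 14 and 12 reads in CTL. Cdkn1a had 9 reads in DMH2.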
